A study of Mus musculus with 6 samples.

Results

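The genes described here encode the mitochondrial respiratory chain and ATP synthase. They were chosen by gene symbol: 79 genes named singly by 148 probe sets matched the symbol pattern for subunits of complexes I to V, 78 of them had a probe set with a mean log2 value above 4 over the 6 arrays, and the brightest such probe set stands for each gene. The missing gene is Cox4i2, the isoform of cytochrome oxidase subunit 4 known from lung, at 2.85 contralaterally and 2.88 ipsilaterally. The 78 genes come out of 8754 named genes and 15298 probe sets tested on the arrays. By symbol, 33 belong to complex I, 4 to complex II, 9 to complex III, 15 to complex IV and 17 to complex V. Subunits coded by the mitochondrial genome were outside the pattern, and 7 probe sets that name a matching gene together with another gene were left out.

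The tissue was cochlear nucleus of mice at postnatal day 21, taken 24 h into a unilateral cochlear infusion of tetrodotoxin (TTX), a sodium channel blocker that silences the auditory nerve. The nucleus on the infused side (ipsilateral) and that on the opposite side (contralateral) were each measured in 3 biological replicates, 1 array per pool of tissue from 10 to 12 mice, and arrays that share a replicate number were taken to hold both nuclei of a single pool of animals. The labels give no strain, sex or untreated group, so all 6 samples come from infused animals and the contralateral side serves as the control. Lower and higher below refer to the infused side against the other. All values are deposited log2 expression values, and a difference is ipsilateral minus contralateral.

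Oxidative phosphorylation passes electrons from NADH through complex I, or from succinate through complex II, to ubiquinone, then through complex III and cytochrome c to complex IV, which reduces oxygen. Complexes I, III and IV pump protons across the inner mitochondrial membrane, and complex V, the ATP synthase, uses the returning protons to make ATP. Neurons of the auditory brainstem fire at high rates and have a high demand for ATP, and cytochrome oxidase staining has long been used as a marker of activity in their nuclei. The comparison asks whether the nuclear genes of this machinery changed in transcript level after a day without auditory nerve activity.

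No member passed the test for a difference in transcript level between the sides. Of the 78 genes 0 passed a Benjamini-Hochberg adjusted p of 0.05 in limma (all had an adjusted p of 1.00), 0 passed an unadjusted p of 0.05, and the smallest unadjusted p was 0.197. Over all tested probe sets the shares were 0% and 2.38%. No member differed by as much as 0.25 (a 1.19-fold change), against 8.94% of all tested probe sets and 1.83% of those with a mean above 11, where most members lie. The differences ran from -0.23 for Cox6b2 to 0.14 for Cox8c, with a median of -0.028 and a middle range of -0.062 to 0.007, beside a median of -0.006 over all tested probe sets. The median spread within a side was 0.069 for the members, 0.164 for all tested probe sets and 0.091 for those with a mean above 11. With 3 arrays a side an exact two-sided permutation test of 1 gene cannot go below 0.1.

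The intervals show what size of change these arrays could have missed. The 95% interval of limma lay wholly within 0.25 of 0 for 27 of the 78 members, against 7.34% of all tested probe sets. Of the 59 members with a mean above 11 it did so for 22, against 25.2% of all tested probe sets at that level. The median half-width over the 78 members was 0.215. With a variance prior that follows the level of the probe set the half-width was 0.157, and 58 of 78 intervals lay within 0.25 (11.2% of all tested probe sets). A difference smaller than the half-width of its interval does not reach an unadjusted p of 0.05 in that fit. Larger differences can miss the adjusted threshold too, which 0 of 15298 tested probe sets passed in limma. In tissue pools a smaller number of cells with many mitochondria and less transcript per cell cannot be told apart.

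**Figure D1:**
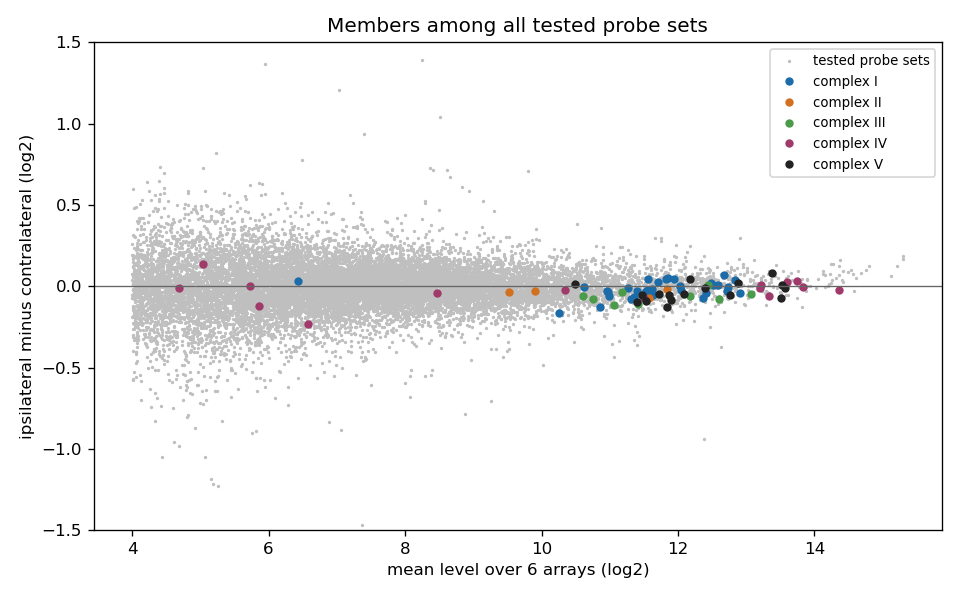
Difference between the sides (vertical axis, log2) against the mean level over 6 arrays (horizontal axis, log2) for the tested probe sets (grey) and the 78 members (coloured by complex); 9 grey points lie beyond the plotted range of 1.5. The members lie close to 0, between -0.23 and 0.14, and most are bright.

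The signs leaned to one side. The mean was lower on the infused side for 55 of 78 members, against 51.8% of all tested probe sets and 47.4% of those with a mean above 11. The difference was below 0 in 3 of 3 replicates for 26 members and above 0 in 3 of 3 for 3 members, where all tested probe sets gave 13.0% and 10.7%. Taken by replicate, the median difference was -0.015 in replicate 1, -0.047 in replicate 2 and -0.022 in replicate 3, with 50, 58 and 49 of 78 members lower. All tested probe sets were lower in 54.5%, 47.7% and 51.0% of cases. The members share arrays, so their signs are not independent of each other.

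**Figure D2:**
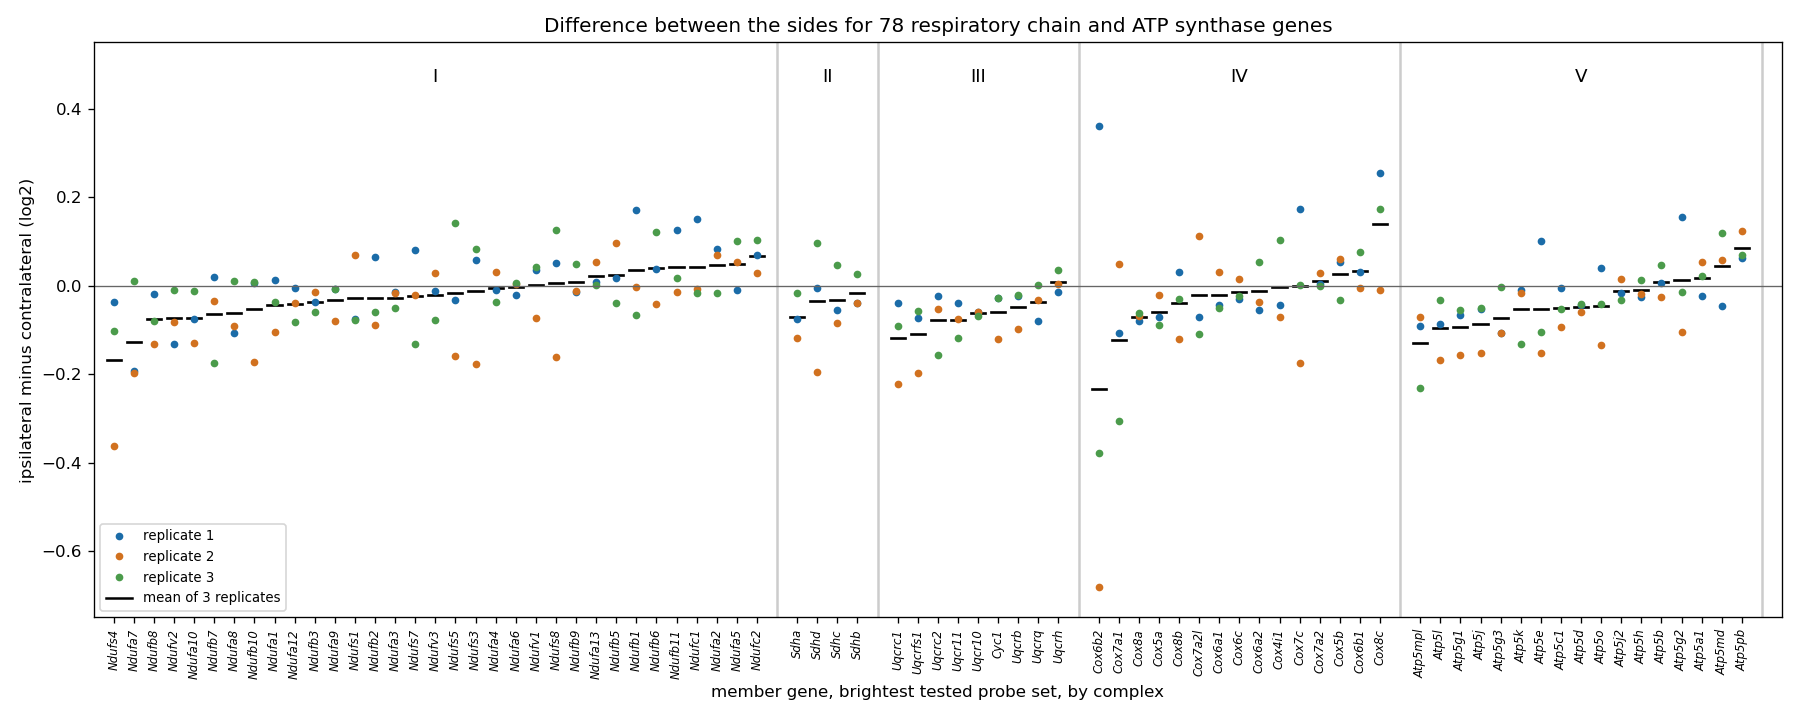
Ipsilateral minus contralateral difference (vertical axis, log2) of each of the 78 members (horizontal axis, grouped by complex I to V and sorted by mean), with a point for each of 3 replicates and a bar at their mean. The bars lie within 0.17 of 0 except for Cox6b2 at -0.23, and the points of most genes lie on both sides of 0.

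The array of contralateral replicate 2 stood above the others. The mean level of the 78 members was 11.46, 11.51 and 11.45 on contralateral arrays 1, 2 and 3, and 11.46, 11.45 and 11.43 on the ipsilateral arrays. Apart from contralateral array 2 the sides overlapped, and ipsilateral array 3 was the lowest. Contralateral array 2 held the highest of the 6 values for 27 of 78 members, against 17.7% of all tested probe sets, and ipsilateral array 3 the lowest for 27 of 78, against 17.4%. Over all tested probe sets the mean of contralateral array 2 was 7.38, within the range of 7.38 to 7.41 of the arrays. Without contralateral replicate 2 the median difference of the members was -0.0087, with 50 of 78 lower. Without ipsilateral replicate 3 it was -0.033, with 48 of 78 lower. The part of these 2 arrays in the lean of the signs was not tested further.

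**Figure D3:**
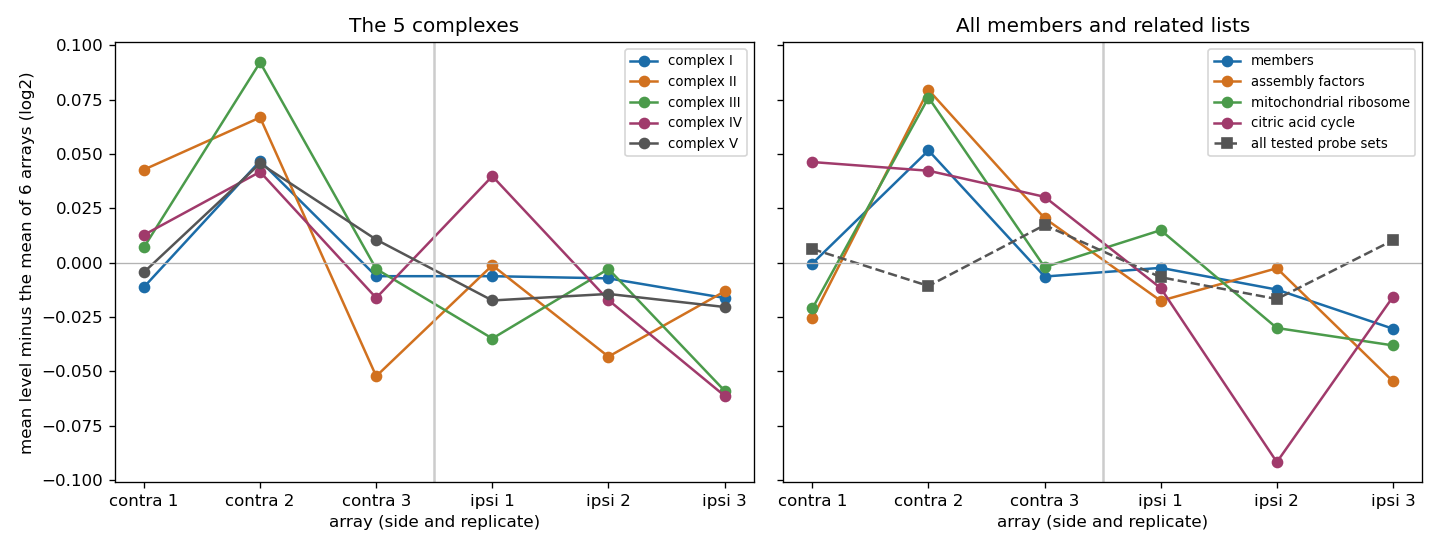
Mean level on each array minus the mean of the 6 arrays (vertical axis, log2) for complexes I to V (left) and for all members, related mitochondrial lists and all tested probe sets (right). Each of the 5 complexes peaks on contralateral array 2, where the mean over all members is 11.51.

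Complex I, the NADH dehydrogenase, had 21 of 33 members lower, with a median difference of -0.020. Ndufs4, an accessory subunit of the electron input module whose loss causes Leigh syndrome, measured 10.18, 10.39 and 10.45 on contralateral arrays 1 to 3 and 10.14, 10.03 and 10.35 on the ipsilateral arrays. The sides overlapped, with the lowest value on ipsilateral array 2, and the difference was -0.17 (SE 0.13, unadjusted p = 0.226 and adjusted p = 1.00 in limma), lower in 3 of 3 replicates. Its dimmer probe sets differed by -0.134 and -0.009. Without replicate 2 of both sides the difference of Ndufs4 was -0.070, so its size rests on that pair.

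Ndufv2, which carries an iron-sulfur cluster beside the NADH site, measured 12.45, 12.41 and 12.33 contralaterally and 12.31, 12.33 and 12.32 ipsilaterally, a difference of -0.074 (SE 0.08, unadjusted p = 0.409 in limma). Ndufa10, an accessory subunit of the membrane arm, measured 11.53, 11.59 and 11.52 contralaterally and 11.45, 11.46 and 11.51 ipsilaterally. The ipsilateral values of Ndufv2 and Ndufa10 all lay below the contralateral ones, though in each gene the nearest values of the sides almost met. Ndufb3, a membrane arm subunit, was also separated in this direction by -0.038, and Ndufc2 in the other by 0.067. The other probe set of Ndufc2 differed by -0.080, so its direction depends on the probe set. The other tested probe sets of Ndufv2 differed by 0.016 and -0.0024, and that of Ndufa10 by -0.107.

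Ndufa7 had the smallest unadjusted p of all members, 0.197, and is named for that after its values were seen. It measured 10.96, 10.95 and 10.87 contralaterally and 10.77, 10.76 and 10.88 ipsilaterally, with a difference of -0.13. Ipsilateral arrays 1 and 2 were low and ipsilateral array 3 was within the contralateral range. All 5 of its tested probe sets were lower, from -0.058 to -0.177. Ndufa12, the brightest complex I probe set, differed by -0.042. Its dimmest tested probe set, at a mean of 4.52, differed by -0.31 (unadjusted p = 0.0546 and adjusted p = 1.00 in limma), the largest difference among the 140 tested probe sets of the members and the 1 of them past 0.25 in size, and its other probe sets by -0.046 and -0.043. Ndufa4, listed here by its symbol but since assigned to cytochrome oxidase, differed by -0.0051.

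Complex II, succinate dehydrogenase, also belongs to the citric acid cycle. All 4 of its subunits were lower, with a median of -0.033. The flavoprotein Sdha, which holds the succinate site, measured 11.63, 11.65 and 11.53 contralaterally and 11.56, 11.54 and 11.51 ipsilaterally, a difference of -0.070 (SE 0.09, unadjusted p = 0.442 in limma). The iron-sulfur subunit Sdhb measured 11.97, 11.93 and 11.66 contralaterally and 11.93, 11.89 and 11.68 ipsilaterally. The arrays of replicate 3 were the low ones on both sides, and the difference of Sdhb was -0.017. The membrane anchors Sdhc and Sdhd differed by -0.032 and -0.034, and the dimmer probe set of Sdhd by 0.184. In replicate 3 only 1 of the 4 subunits was lower.

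In complex III, the cytochrome bc1 complex, 8 of 9 members were lower, with a median over all 9 of -0.062, and 7 of 9 were lower in 3 of 3 replicates, where 13.0% of all tested probe sets were. The core protein Uqcrc1 measured 11.004, 11.34 and 11.02 contralaterally and 10.96, 11.12 and 10.93 ipsilaterally, a difference of -0.118 (SE 0.12, unadjusted p = 0.372 in limma). The 2 arrays of replicate 2 were the highest of their sides, and the sides overlapped. Uqcrfs1, the Rieske iron-sulfur protein that accepts electrons from ubiquinol, measured 11.46, 11.61 and 11.34 contralaterally and 11.39, 11.41 and 11.29 ipsilaterally, a difference of -0.109. The other core protein, Uqcrc2, differed by -0.078, cytochrome c1 (Cyc1), which passes electrons on to cytochrome c, by -0.059, and the brightest, Uqcrb, by -0.048. The hinge protein gene Uqcrh was the exception at 0.0088. No member of complex III had sides that did not overlap, and without contralateral replicate 2 the median was -0.040.

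Complex IV, cytochrome c oxidase, had 10 of 15 members lower with a median of -0.014, and 2 of 15 were lower in 3 of 3 replicates. Cox4i1, the regulatory subunit 4 of most tissues, measured 13.77, 13.83 and 13.90 contralaterally and 13.72, 13.75 and 14.00 ipsilaterally. The sides overlapped fully, and the difference of -0.0035 (SE 0.11, interval -0.262 to 0.255) became 0.037 after quantile normalization. Cox5a, a subunit on the matrix side of the enzyme, measured 13.38, 13.38 and 13.32 contralaterally and 13.31, 13.36 and 13.23 ipsilaterally, lower in 3 of 3 replicates by -0.061.

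The genes for subunits 4, 6a, 7a and 8 come in pairs of a general and a muscle or lung isoform, and no tested isoform passed the test; Cox4i2 was too dim to be tested. Cox6a1, the brightest member, differed by -0.022 and its heart and muscle isoform Cox6a2 by -0.013, at 4.69 over the arrays. Cox7a2 differed by 0.011 and its muscle isoform Cox7a1 by -0.122. Cox7a1 was highest on contralateral array 3 at 6.09 and lay between 5.71 and 5.91 on the others. Cox8a differed by -0.070, lower in 3 of 3 replicates, and its muscle isoform Cox8b by -0.040. The levels of isoforms come from different probes and were not compared with each other. Cox7c was represented by a dim probe set at 5.72, which differed by 0.00021. Its other probe set had a mean of 3.90, under the minimum of 4, and was not tested. That probe set differed by -0.564, lower in 3 of 3 replicates, with sides that did not overlap.

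**Figure D4:**
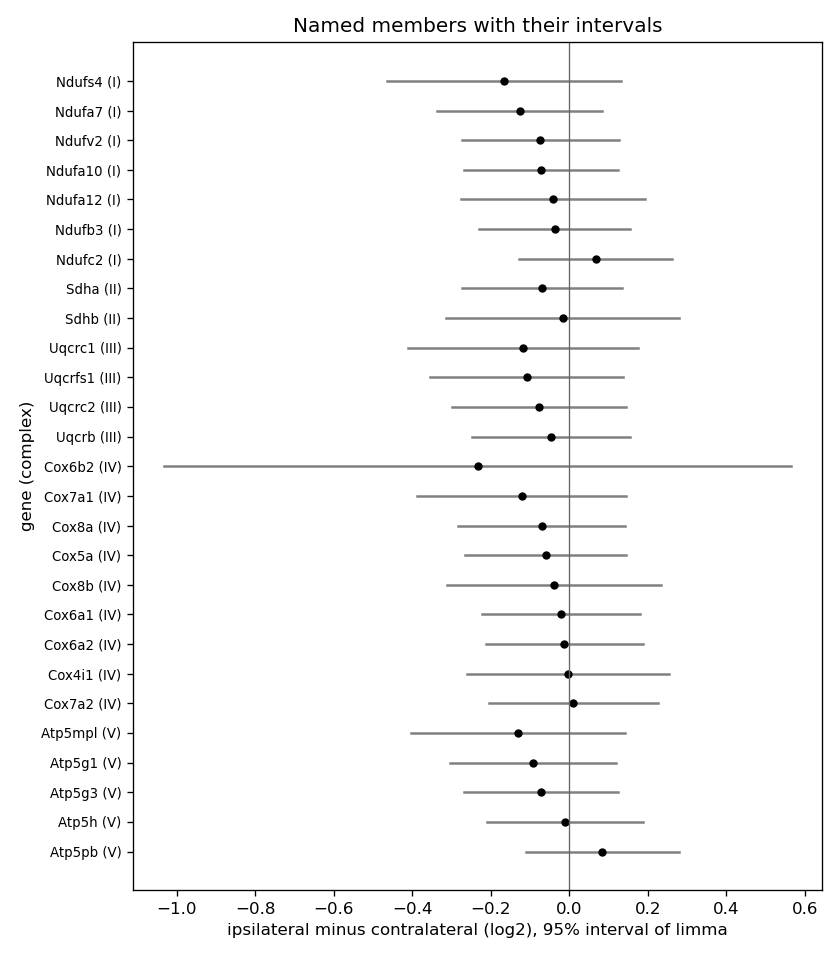
Ipsilateral minus contralateral difference (horizontal axis, log2) with the 95% interval of limma for a selection of the members named in the text. The vertical axis gives the gene, with the complex in brackets. Every interval spans 0, and that of Cox6b2 is the widest, from -1.03 to 0.56.

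Cox6b2 varied far more between arrays than the other members, and is named for that after its values were seen. It encodes the testis isoform of subunit 6b, and its general isoform Cox6b1 differed by 0.034. Cox6b2 measured 6.91, 6.68 and 6.48 on contralateral arrays 1, 2 and 3 and 7.27, 5.995 and 6.10 on the ipsilateral arrays. Ipsilateral array 1 was thus the highest and ipsilateral arrays 2 and 3 the lowest, and the difference was 0.36 in replicate 1, -0.68 in replicate 2 and -0.38 in replicate 3.

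Taken as a mean, markers of the choroid plexus, the secretory tissue of the ventricle beside the nucleus, ran in the same order. The mean of the 7 markers tested of 11 listed was 9.32 on ipsilateral array 1, 8.30, 8.06 and 7.59 on contralateral arrays 1, 2 and 3, and 5.06 and 4.79 on ipsilateral arrays 3 and 2. Cox6b2 was the 1 member of 78 with exactly this order of arrays, which 0.294% of all tested probe sets had. Of the single markers, Folr1, Otx2 and Aqp1 followed this order in full and the others did not. Ttr was higher on contralateral array 2 (15.65) than on contralateral array 1 (15.51). Kcne2, Sostdc1 and Kl were slightly higher on ipsilateral array 2 than on ipsilateral array 3. All 7 markers were lower on average over the replicates, with means over the arrays from 4.80 to 14.5. In replicate 1 all 7 were higher, by a median of 1.15, and in replicates 2 and 3 all 7 were lower. On ipsilateral arrays 2 and 3 Kcne2 was at 2.78 and 2.75 and Sostdc1 at 2.73 and 2.59, under the minimum mean of 4. Ttr was at 11.87 and 12.98 on these arrays and Otx2 at 5.85 and 6.36. With the marker mean as a covariate the difference of Cox6b2 was 0.220 (unadjusted p = 0.116 in limma). Without ipsilateral replicate 1 it was -0.642 (unadjusted p = 0.00615) and without replicate 1 of both sides -0.531 (0.0147). Without ipsilateral arrays 2 and 3, a choice made after seeing the data, ipsilateral array 1 alone lay 0.583 above the contralateral mean, a value given with no test since 1 array has no spread of its own. Over all settings that kept at least 2 arrays a side, these included, the unadjusted p ranged from 0.00615 to 0.991, and Cox6b2 passed the adjusted threshold in none of them.

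**Figure D5:**
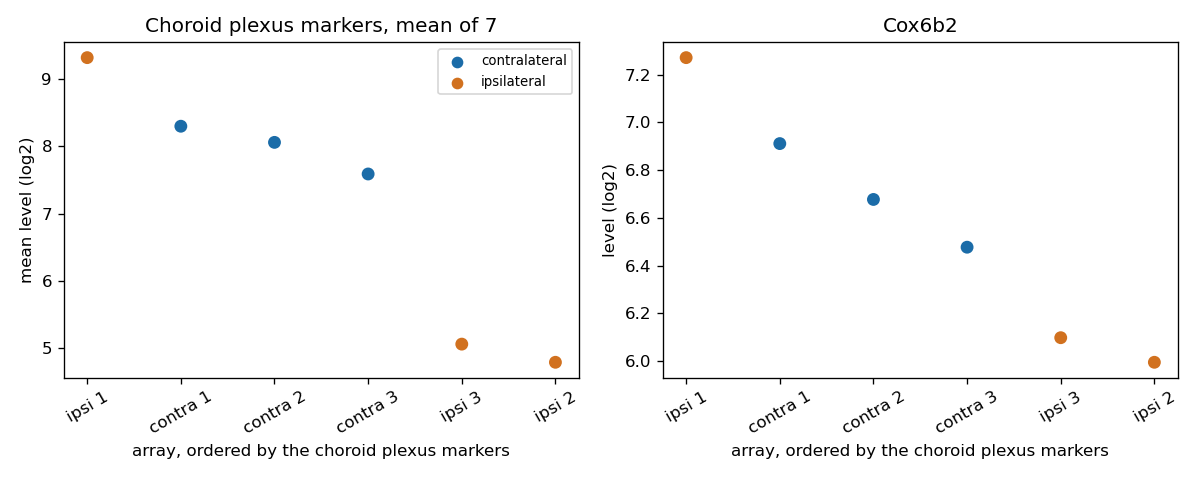
Mean level of 7 choroid plexus markers (left) and level of Cox6b2 (right) on each array (vertical axes, log2), with arrays ordered by the markers and coloured by side. In both panels ipsilateral array 1 is highest, at 9.32 and 7.27, and ipsilateral arrays 3 and 2 are lowest.

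With the marker mean as a covariate 49 of 78 members were lower, with a median of -0.027. Without ipsilateral arrays 2 and 3 it was 49 of 78 with a median of -0.033. Other cell markers gave the following background, none with a member past an adjusted p of 0.05 in limma. On average all 7 astrocyte, all 6 oligodendrocyte and all 7 microglial markers were higher, by medians of 0.064, 0.134 and 0.171. In 3 of 3 replicates 2, 2 and 4 of them were higher, where 10.7% of all tested probe sets were. The astrocyte differences ran from 0.003 for Aldoc to 0.108 for Aqp4. In replicate 1, 4 of the 7 astrocyte markers were lower, and in replicate 3, 3 of them. Past an unadjusted p of 0.05 in limma were 3 microglial markers, against 2.38% of all tested probe sets. Of 10 neuronal markers 6 were lower, with a median over all 10 of -0.038, where 51.8% of all tested probe sets were lower. The mean of the neuronal markers spanned 10.3 to 10.6 contralaterally and 10.3 to 10.7 ipsilaterally. Of the endothelial and the cerebellar markers 3 of 6 each were lower, with medians of 0.025 and -0.116. The cerebellar list held the smallest p of any listed gene: Calb1, a calcium-binding protein of Purkinje cells, measured 10.14, 10.23 and 10.44 contralaterally and 9.70, 9.81 and 9.85 ipsilaterally, all ipsilateral values lower. Its difference was -0.483 (unadjusted p = 0.00341 and adjusted p = 1.00 in limma). Car8, another Purkinje cell marker, differed by -0.307 (unadjusted p = 0.0892 in limma, 0.0212 with the replicate block), lower in 3 of 3 replicates. The Purkinje cell marker Pcp2 differed by -0.432, 0.319 and -0.788 in replicates 1 to 3 (unadjusted p = 0.564 in limma). The other cerebellar markers Cbln1, Neurod1 and Gabra6 were higher, by 0.14, 0.139 and 0.068. Whether the transcripts of this list came from cerebellum or from the nucleus itself was not tested. The nucleus markers Atoh7, Lhx9, Hoxa2 and Hoxb2 were all above the minimum level, and 3 of the 4 were lower, with a median over all 4 of -0.095. The part of these markers in the members' differences was not tested.

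Complex V had 12 of 17 members lower, with a median of -0.048. The small membrane subunit gene Atp5mpl measured 11.95, 11.96 and 11.81 contralaterally and 11.86, 11.89 and 11.58 ipsilaterally, a difference of -0.131 (SE 0.11, unadjusted p = 0.295 in limma). Replicate 3 was the lowest on each side, and the sides overlapped. The 3 genes Atp5g1, Atp5g2 and Atp5g3 encode the same mature c subunit of the rotor ring, and they differed by -0.093, 0.012 and -0.072. Atp5g3 measured 13.57, 13.56 and 13.50 contralaterally and 13.46, 13.46 and 13.50 ipsilaterally, so that the sides were only just apart.

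Atp5pb, subunit b of the stalk that holds the catalytic head in place, went the other way. It measured 13.37, 13.30 and 13.33 contralaterally and 13.44, 13.42 and 13.40 ipsilaterally, all above the contralateral values, a difference of 0.084 (SE 0.08, unadjusted p = 0.340 in limma). Its dimmer probe set differed by -0.029. The catalytic head subunits Atp5a1 and Atp5b differed by 0.017 and 0.0092, and the brightest, the stalk subunit Atp5h, by -0.011. A plain equal-variance test without shared variance gave Atp5pb and Atp5g3 an unadjusted p under 0.05, where it gave 2.77% of all tested probe sets, and none after adjustment. The sides did not overlap for 6 of 78 members in all: Ndufa10, Ndufb3, Ndufv2 and Atp5g3 were lower and Ndufc2 and Atp5pb higher. Over all tested probe sets 3.44% were separated downward and 2.82% upward, so these counts are near the background.

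Probe sets of the same gene gave a view of the error that the replicates do not. Of 41 members with more than 1 tested probe set, 21 had all of them lower, 2 had all higher (Atp5a1 and Cox7a2) and 18 had both signs. The median range between probe sets of a gene was 0.071. The lean was stronger in probe sets with the plain ending, designed for 1 transcript, than in those ending in _a_at, _s_at or _x_at, which can match several transcripts or related sequences. Of the plain ones 53 of 62 were lower, with a median over all 62 of -0.057, and of the others 52 of 78, with a median over all 78 of -0.024. Over all tested probe sets these shares were 51.7% and 51.9%. The difference between the kinds was not tested. Among genes with several probe sets the dimmest was the lower one in 25 of 41 cases. With the mean of all tested probe sets of a gene 63 of 78 members were lower, with a median over all 78 of -0.030.

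Genes that act on or beside the chain were given by lists chosen for their role. Beside the counts in these lists, 51.8% of all tested probe sets were lower and 2.38% passed an unadjusted p of 0.05 in limma. Of 34 tested assembly factors 27 were lower, with a median of -0.049 and 0 past an unadjusted p of 0.05 in limma. Cox20 and Cox19, which help to build cytochrome oxidase, measured 9.44 ± 0.04 and 7.98 ± 0.06 contralaterally and 9.23 ± 0.09 and 7.78 ± 0.08 ipsilaterally (SD, n = 3 each). Their unadjusted limma p was 0.0592 and 0.0639, and each was lower in 3 of 3 replicates. Of 71 mitochondrial ribosomal protein genes 46 were lower, the median over all 71 was -0.035, and only Mrpl21 passed an unadjusted p of 0.05, at a difference of -0.271 (unadjusted p = 0.0421 in limma's fit, adjusted p = 1.00). Mrpl36 differed by -0.213.

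Of 16 citric acid cycle and pyruvate dehydrogenase genes 14 were lower, with a median over all 16 of -0.057. Suclg2, the GTP-forming subunit of succinyl-CoA ligase, was the 1 past an unadjusted p of 0.05. It measured 7.55, 7.40 and 7.31 contralaterally and 7.21, 7.07 and 7.09 ipsilaterally, with all ipsilateral values lower. Its difference was -0.295 (SE 0.10, unadjusted p = 0.0240 and adjusted p = 1.00 in limma). Dlat, the acetyltransferase of pyruvate dehydrogenase, differed by -0.198. Of 16 mitochondrial carriers and channels 11 were lower, with a median over all 16 of -0.029 and 0 past an unadjusted p of 0.05 in limma. Those of smallest p were the aspartate-glutamate carrier Slc25a13 (-0.247) and the oxoglutarate carrier Slc25a11 (-0.155). The outer membrane protein gene Tspo, named after its values were seen, had the largest difference in this list at -0.394 (unadjusted p = 0.218 in limma). Tspo measured 5.43, 5.47 and 5.18 contralaterally and 5.64, 4.83 and 4.43 ipsilaterally. Ipsilateral array 1 was thus the highest and ipsilateral arrays 2 and 3 the lowest, as for Cox6b2. A link of Tspo to the choroid plexus markers was not tested. Contralateral array 2 was the highest array for 27 of 71 mitochondrial ribosomal genes and 11 of 34 assembly factors too, against 17.7% of all tested probe sets. Of the 16 citric acid cycle genes it was the highest for 4, as was contralateral array 1. In that list ipsilateral array 2 was the lowest for 9 of 16, against 18.3% of all tested probe sets.

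Of 22 nuclear regulators of mitochondrial genes 13 were lower, with a median over all 22 of -0.037. Mef2a, a transcription factor of muscle and neurons, was the 1 past an unadjusted p of 0.05 and was higher, at 9.78 ± 0.03 contralaterally and 10.07 ± 0.14 ipsilaterally (SD, n = 3 each), a difference of 0.291 (unadjusted p = 0.0236 and adjusted p = 1.00 in limma). Creb1 was dim and differed by -0.502 (unadjusted p = 0.0661 and adjusted p = 1.00 in limma), and with the replicate block its unadjusted p was 0.0278 and its adjusted p 0.991. The coactivator gene Ppargc1a, which drives mitochondrial biogenesis, measured 9.78, 9.82 and 9.70 contralaterally and 9.47, 9.71 and 9.69 ipsilaterally. Ipsilateral array 1 was low and the other 2 were at the contralateral edge, for a difference of -0.142 (unadjusted p = 0.208 and adjusted p = 1.00 in limma), and Ppargc1a was named after its values were seen. Nrf1 and Gabpa, whose proteins bind the promoters of many respiratory genes, differed by 0.041 and 0.10.

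Promoters of respiratory genes are known for binding sites of several of these regulators. RefSeq promoter windows of build GRCm38.p6, from 250 bases before to 50 after the start, were held for 64 of the 78 members. CCGGAAG, the core bound by GABPA, was found on either strand in 17 of 64 members (26.6%), against 12.9% of 17492 protein-coding genes and 9.93% of all 27025 genes with a window. The palindrome bound by NRF1, whose letters are the first run of capitals in Cox6a1, was found in 4 of 64 (6.25%), against 1.47% and 1.07%. With any base allowed in place of its only A, which includes the first form, it was found in 14 of 64 (21.9%), against 7.17% and 5.19%. The YY1 core AAGATGGCG was present in 6 of 64 (9.38%, against 2.14% of protein-coding genes), the ERR element TCAAGGTCA in 2 of 64 (3.12%, against 0.377%) and the SP1 core GGGCGG in 26 of 64 (40.6%, against 49.2%). A match describes the letters and is no evidence of binding in these samples.

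The 250 bases before the start are shown for 1 member with a match from each complex. They are also shown for Cox6b2, which varied with the choroid plexus markers and, like most members with a window, had no match. Capitals mark CCGGAAG or its reverse complement and, in Cox6a1, the NRF1 palindrome, and all 6 genes lie on the minus strand and are written in the direction of transcription.
Ndufs3 (complex I, chr2:90904722-90904971): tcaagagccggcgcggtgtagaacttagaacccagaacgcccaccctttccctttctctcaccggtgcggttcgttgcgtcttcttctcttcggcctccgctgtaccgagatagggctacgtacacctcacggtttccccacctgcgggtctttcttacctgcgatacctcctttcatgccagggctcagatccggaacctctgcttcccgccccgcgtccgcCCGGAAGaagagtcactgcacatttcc
Sdhd (complex II, chr9:50603850-50604099): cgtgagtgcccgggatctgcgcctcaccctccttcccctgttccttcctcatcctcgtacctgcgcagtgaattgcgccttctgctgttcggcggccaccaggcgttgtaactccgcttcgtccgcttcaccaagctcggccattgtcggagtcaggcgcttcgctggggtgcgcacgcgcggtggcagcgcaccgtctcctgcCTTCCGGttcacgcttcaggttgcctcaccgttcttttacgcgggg
Uqcr11 (complex III, chr10:80406822-80407071): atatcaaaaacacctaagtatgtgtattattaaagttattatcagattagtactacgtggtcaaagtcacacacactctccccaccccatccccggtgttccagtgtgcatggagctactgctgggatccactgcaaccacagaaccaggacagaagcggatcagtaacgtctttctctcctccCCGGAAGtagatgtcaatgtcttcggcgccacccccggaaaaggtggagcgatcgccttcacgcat
Cox6a1 (complex IV, chr5:115348959-115349208): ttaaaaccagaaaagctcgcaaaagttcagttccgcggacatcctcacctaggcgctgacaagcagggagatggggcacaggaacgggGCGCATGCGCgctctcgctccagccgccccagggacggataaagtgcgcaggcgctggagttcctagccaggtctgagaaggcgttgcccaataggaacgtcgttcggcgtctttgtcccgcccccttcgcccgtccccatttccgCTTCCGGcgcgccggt
Atp5h (complex V, chr11:115419920-115420169): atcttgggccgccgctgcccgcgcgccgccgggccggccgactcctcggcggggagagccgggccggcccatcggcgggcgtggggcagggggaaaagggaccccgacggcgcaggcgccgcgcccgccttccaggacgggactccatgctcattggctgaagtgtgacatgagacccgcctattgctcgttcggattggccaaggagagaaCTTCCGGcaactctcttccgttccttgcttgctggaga
Cox6b2 (complex IV, chr7:4753095-4753344): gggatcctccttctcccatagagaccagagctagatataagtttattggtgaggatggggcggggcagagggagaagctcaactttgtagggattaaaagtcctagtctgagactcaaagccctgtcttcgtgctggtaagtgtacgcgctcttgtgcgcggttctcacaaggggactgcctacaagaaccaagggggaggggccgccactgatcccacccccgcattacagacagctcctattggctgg

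Cox6a1 was the only one of these 6 with both motifs in their exact form, the NRF1 palindrome starting 162 bases and the GABPA core 16 bases before the start. In Ndufs3, Atp5h, Sdhd and Uqcr11 the GABPA core began 27, 38, 46 and 66 bases before it. The Cox6b2 window held neither motif, as was so for most members with a window. The windows of Sdhd and Atp5h also held the looser NRF1 form, which is not in capitals. The 5 members shown with a match differed by -0.012, -0.034, -0.077, -0.022 and -0.011 in the order printed.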

How the data were processed

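Per the labels, total RNA of 6 cochlear nucleus pools was hybridised to 1 Affymetrix array each. The authors deposited log2 values per probe set made with GCRMA, per the submitters' processing notes. Their range of 1.40 to 16.0 was taken as that of a log2 scale, and no label or header names the GCRMA version or options. GCRMA corrects background by probe sequence, shrinks dim probes and normalizes between arrays, so a change common to most genes would be removed. The array medians lay between 5.86 and 5.91.

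Each description in the labels gave the side and the replicate number. Genes were named by the platform annotation: 20393 of 22690 probe sets had 1 symbol, 691 several and 1606 none. All 78 member symbols were in the RefSeq table. Left out were 64 control probe sets and 7328 with a mean at or below 4. limma 3.58.1 in R 4.3.3 compared the sides over the remaining 15298, with adjustment over all of them and no replicate block. The labels give no batch, and separate pools are the replicates. The fitting script was tested on simulated data with known changes.

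The members and lists were chosen with earlier results of these data known. Named were the brightest member of each complex, up to 3 per complex of smallest p with 1 sign in 3 of 3 replicates, 4 isoform pairs and up to 2 genes per related list. All other genes named were picked for their role or after their values were seen. The replicate numbers were read as pairs because the series describes infusion of 1 ear. Deviations from the side means correlated at 0.09, 0.04 and 0.57 for same-numbered arrays and between -0.37 and 0.30 for the others, so the values alone do not show the pairing. Alternatives were the replicate block, other filters, normalizations, variance models and probe set rules, the choroid plexus covariate, a member list without tissue isoforms, and leaving out arrays or pairs.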

Additional observations from a re-analysis of the deposited data

How the results depend on the processing

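No member passed the adjusted threshold under any alternative, and 48 to 63 members were lower. With the replicate block 55 of 78 were lower and 0 passed, and the block changed no call on a member. Of the other listed genes it added Creb1 and Car8 at an unadjusted p under 0.05, and over all tested probe sets that number went from 364 to 569. Leaving out arrays or pairs gave 48 to 58 lower and a median between -0.045 and -0.0087. By complex the medians ran from -0.0335 to 0.0032 (I), -0.0838 to -0.0056 (II), -0.0897 to -0.0397 (III), -0.0278 to 0 (IV) and -0.0604 to -0.0193 (V). Members past an unadjusted p of 0.05 numbered 0 to 1, and over all probe sets 0 to 5 passed the adjusted threshold. The plain test gave 2 members. Leaving out ipsilateral arrays 2 and 3 leaves 1 ipsilateral array, picked with its values known, so the 1 member it gave, Cox6b2, rests on the spread of the contralateral side and is not read as a call. Quantile normalization turned the complex IV median to 0.00156. Array centring turned the replicate 1 median to 0.00953, and without probe sets ending in _x_at or _s_at that of replicate 2 was -0.0641. Signs of small differences, and that of Cox6b2, turned as follows, and the cause was not tested. Quantile normalization gave Atp5h 0.0269, Cox4i1 0.0368, Cox6a1 0.0022 and Cox6a2 0.0016, and array centring Cox4i1 0.0047. Without _x_at and _s_at probe sets Atp5pb was -0.0289 and Ndufc2 -0.0796, and with gene means Ndufc2 was -0.0062. The choroid plexus covariate gave Atp5h 0.0073, Cox6b2 0.220, Cox7a2 -0.026, Cox8b 0.0085 and Sdhb 0.0458. Leaving out ipsilateral arrays 2 and 3, chosen after seeing the data, gave Atp5h 0.016, Cox6b2 0.583, Cox7a2 -0.0492, Cox8b 0.0409, Sdhb 0.0805 and Uqcrc2 0.0078. Leaving out single arrays or pairs gave ranges of -0.0372 to 0.0103 for Atp5h, -0.0241 to 0.0508 for Cox7a2, -0.116 to 0.0595 for Sdhb, -0.0914 to 0.049 for Cox4i1, -0.0461 to 0.0081 for Cox6a2, -0.114 to 0.0299 for Cox8b and -0.0843 to 0.0169 for Ndufa12.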
